A study of Mus musculus with 23 samples.

Results

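The genes described here are 39 genes of skeletal muscle contraction and metabolism, taken by symbol from a given list and all found among the 37620 genes counted in each library. They fall into 10 genes of the thick filament, 8 of the thin filament, 8 of the Z disc and scaffold, 6 of calcium handling, 5 of energy supply and 2 regulators of muscle differentiation. The samples were 23 libraries of total RNA from mouse melanomas that arose in a model of ultraviolet-induced disease. Of these, 7 were primary tumours labelled HP with wild-type Nme1 and Nme2, and 7 were primary tumours labelled HPN with the genotype Nme1+/- / Nme2+/-. The metastases had the HPN genotype throughout and comprised 7 libraries from lymph node sites (3 brachial, 2 cervical, 1 inguinal and 1 given only as lymph) and 2 from lung. Not given in the sources used here were the meaning of the letters HP and HPN, the strain, age and sex of the animals, and any further allele that the groups share. Primary tumours carry the numbers of their titles below, and node libraries 7a and 7b, which share a number, were summed in the tests, so that 6 node samples were compared.

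Striated muscle shortens when myosin heads of the thick filament pull on the actin of the thin filament, under the control of troponin and of calcium released from the sarcoplasmic reticulum. Fast fibres and slow fibres use different members of the same gene families, and the heart shares several members with slow fibres. In mouse skin a thin sheet of skeletal muscle, the panniculus carnosus, lies beneath the dermis and the fat, so that a piece of skin tumour can hold muscle fibres as well as melanoma cells.

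Reads assigned to genes came to between 18870759 and 89481553 per library. All 23 libraries held melanocyte gene RNA, with the 7 melanocyte markers summing to between 4428 and 61655 CPM (a gene's counts relative to its library's total, scaled between libraries by the trimmed mean of M values). The 6 lymphocyte markers summed to 147.3 to 1085 CPM in the nodes and to 3.73 to 19.4 CPM in the HPN primaries. The 5 alveolar and airway markers summed to 7357 CPM in lung metastasis 4 but to 3.30 CPM in lung metastasis 3, which is within the range of the primaries (1.82 to 16.2 CPM). Nme1, one of the targeted genes, stood at 16.8 ± 7.93 CPM in HP primaries and 10.5 ± 2.79 CPM in HPN primaries (SD, n = 7 each), with overlapping ranges. Nme2, the other, stood at 0.481 ± 0.196 and 0.238 ± 0.128 CPM (SD, n = 7 each), also overlapping. Whether reads of Nme2 could be counted in full was not tested, so its low values are uncertain as levels. The 8 libraries that contain reads set aside for low alignment quality (nodes 7a, 7b and 8, HPN primary 7 and HP primaries 3, 6, 7 and 9) were treated as a possible batch. All values come from bulk tissue, in which fewer muscle cells and less RNA per muscle cell cannot be told apart.

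The sequences just upstream of the adult fast myosin genes are shown first because the 3 genes lie side by side in 1 cluster on chromosome 11 and yet took very different shares in different tumours. Acta1 and Ckm are shown beside them because the ratio of their levels varied by no more than 2.04-fold over 9 tumours. Each line gives the 250 bases before the RefSeq transcription start (GRCm38.p6), 5′ to 3′ on the gene's own strand. Capitals mark matches, on either strand, to the E-box CANNTG that MyoD-family factors bind, to the MEF2 site, to the CArG box bound by serum response factor, and to TATAAA.
Myh4 (chr11:67237562-67237811, plus strand): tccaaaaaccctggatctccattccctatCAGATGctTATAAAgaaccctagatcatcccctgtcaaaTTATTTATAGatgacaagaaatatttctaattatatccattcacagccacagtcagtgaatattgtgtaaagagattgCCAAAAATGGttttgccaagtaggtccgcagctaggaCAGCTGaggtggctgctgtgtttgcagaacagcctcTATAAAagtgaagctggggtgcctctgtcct
Myh1 (chr11:67199852-67200101, plus strand): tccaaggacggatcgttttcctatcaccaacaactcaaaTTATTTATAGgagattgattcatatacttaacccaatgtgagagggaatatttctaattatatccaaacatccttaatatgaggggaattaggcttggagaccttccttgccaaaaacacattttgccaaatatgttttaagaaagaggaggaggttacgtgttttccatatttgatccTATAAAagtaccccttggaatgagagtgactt
Myh2 (chr11:67170777-67171026, plus strand): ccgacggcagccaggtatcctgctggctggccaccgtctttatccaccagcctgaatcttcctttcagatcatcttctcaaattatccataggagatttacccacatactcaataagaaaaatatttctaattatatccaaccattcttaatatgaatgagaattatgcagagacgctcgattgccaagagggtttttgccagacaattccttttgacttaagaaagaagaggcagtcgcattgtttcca
Acta1 (chr8:123894776-123895025, minus strand): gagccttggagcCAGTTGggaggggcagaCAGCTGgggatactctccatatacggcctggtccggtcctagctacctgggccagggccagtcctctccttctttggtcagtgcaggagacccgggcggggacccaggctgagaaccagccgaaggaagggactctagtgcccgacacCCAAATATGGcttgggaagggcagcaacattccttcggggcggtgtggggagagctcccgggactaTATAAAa
Ckm (chr7:19410844-19411093, plus strand): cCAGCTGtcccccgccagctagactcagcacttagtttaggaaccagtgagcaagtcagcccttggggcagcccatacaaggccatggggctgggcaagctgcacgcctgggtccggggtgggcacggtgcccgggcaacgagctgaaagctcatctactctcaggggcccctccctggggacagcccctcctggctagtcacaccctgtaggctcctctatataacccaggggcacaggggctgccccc

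In Myh4 and Myh1 the reverse match to TATAAA lies inside the MEF2 site, which is the same 10 letters in both. The Myh2 window held no match to any of the motifs searched. RefSeq entries were matched for 30 of the 39 genes, with 36 windows because some genes have several starts. An E-box was found in 30 of these 36 windows and in 66.2% of all 32851 windows of the same length. The narrower E-box CAGCTG was found in 17 of the 36 against 13.0% of all windows, the MEF2 site in 6 against 2.92%, the CArG box in 5 against 1.47%, and TATAAA in 7 against 12.4%. A match is a description of letters and not a binding site.

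Muscle gene RNA varied widely among the primary tumours of both genotypes. Summed over the 39 genes, HP primaries 1, 3, 4, 5, 6, 7 and 9 held 95.7, 936, 5145, 57.2, 2759, 153 and 53.1 CPM. HPN primaries 1 to 7 held 10664, 40.9, 1430, 2436, 327, 456 and 52.1 CPM. The highest, HPN primary 1, gave 1.07% of its scaled counts to these genes and the lowest, HPN primary 2, 0.00409%. In the nodes the sums were 243.8, 64.6, 541, 202, 359, 304 and 380 CPM for libraries 3, 4, 5, 6, 7a, 7b and 8, and in lung metastases 3 and 4 they were 107 and 877 CPM. HPN primary 1 was the highest of all 23 libraries for 33 of the 39 genes. The 6 exceptions were Myl2, Myl3, Tnnt1, Tnnc1, Tnni1 and Myog.

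**Figure D1:**
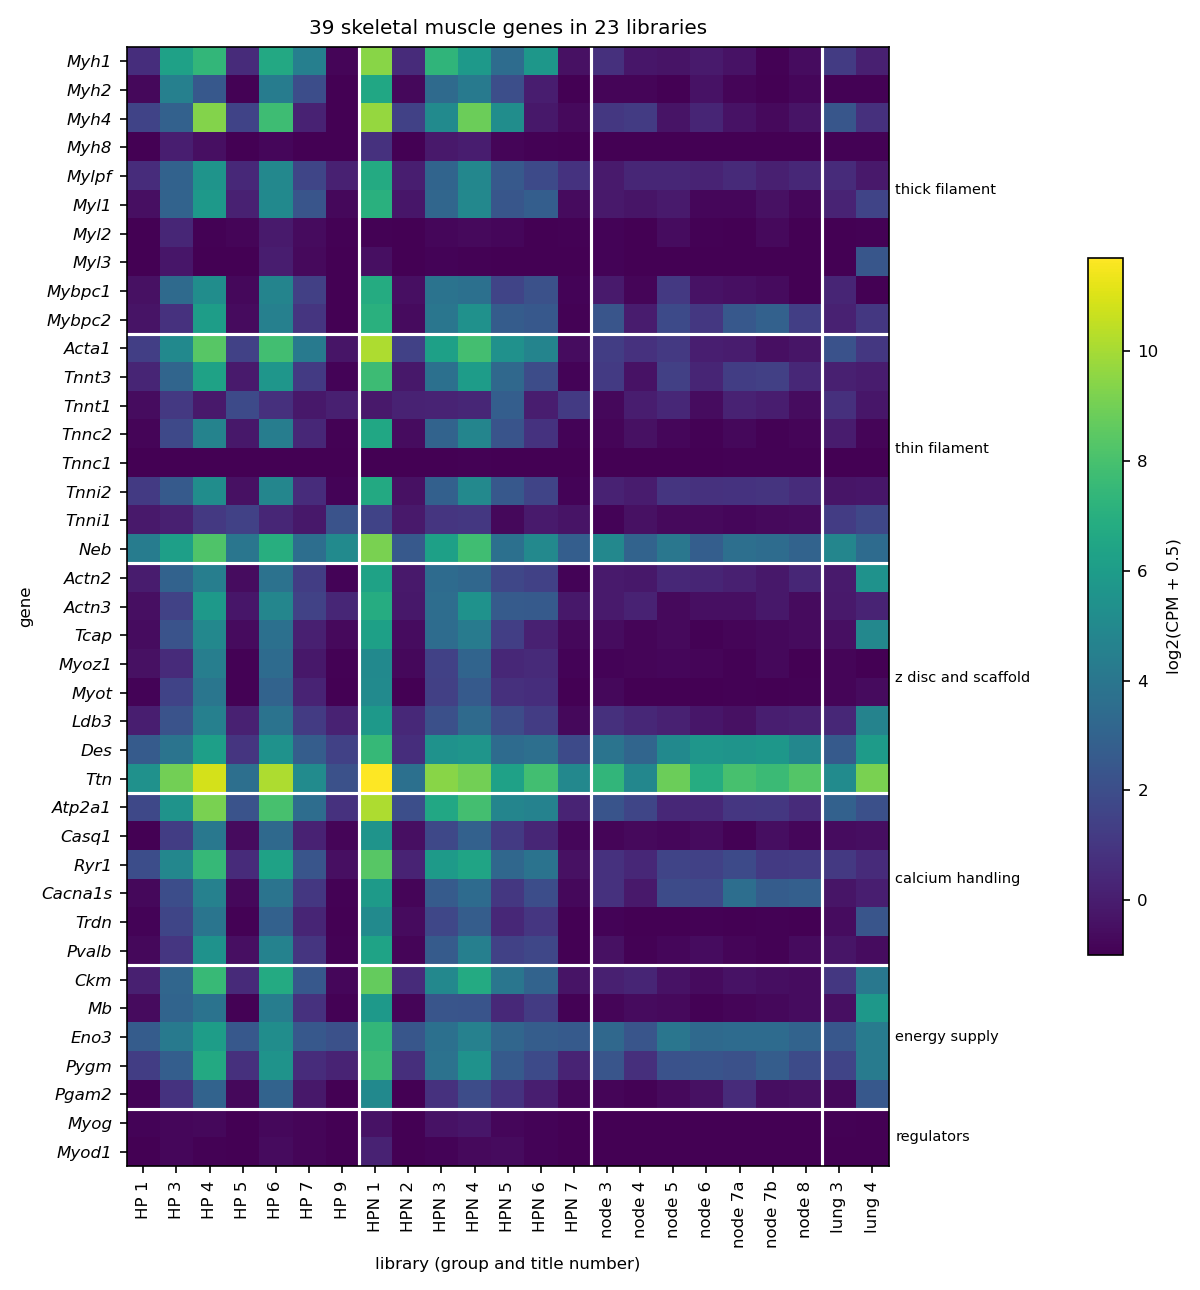
Each of the 39 genes (rows, by role) in each of the 23 libraries (columns, by group and title number), with colour for the CPM on a log scale. HPN primary 1, HP primaries 4 and 6 and HPN primary 4 form bright columns across most rows, and the node columns are dark except in the rows of Ttn, Des, Neb and a few others.

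Markers of other skin layers followed the muscle sums only in part. The 4 primaries with the highest muscle sums (HPN 1, HP 4, HP 6 and HPN 4) were also the 4 with the highest sums of 8 adipocyte markers, at 734, 420, 607 and 396.5 CPM, against 71.0 to 199 CPM in the other primaries. Car3, 1 of these 8 markers, had 11709, 10311, 8276 and 3972 counts in the 4 tumours. Whether its RNA came from fat or from muscle was not tested, so the adipocyte sum may not be independent of the muscle sum. Keratinocyte markers followed less closely. Their 11 genes summed to 7787, 5137, 16841 and 2978 CPM in those 4 tumours, but HP primary 1 had 10800 CPM of keratinocyte RNA with a low muscle sum, and HPN primary 5 had 7.33 CPM with a muscle sum of 327 CPM. The part of the sampled skin tissue in these differences was not tested.

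Within the tumours that held muscle RNA, the genes differed in how closely they followed Acta1. In the 9 primaries with at least 200 counts of Acta1, the skeletal muscle actin, 28 of the genes had at least 20 counts in every tumour. The ratio of CPM to that of Acta1 varied less than 4-fold for 16 of the 28, less than 10-fold for 26, and more than 10-fold for Myh1 and Mb. The 28 were kept for being counted in every tumour, which leaves out genes that were nearly absent in some. Over the tumours in which they reached 20 counts, the ratio varied 126-fold for Tnnt1 (6 tumours), 52.5-fold for Myh4 (8), 47.6-fold for Myh2 (8), 25.7-fold for Myh8 (3) and 12.8-fold for Myl2 (2). The smallest ranges were those of Casq1, the calsequestrin that stores calcium in the reticulum, whose ratio varied 2.03-fold, and Ckm, the muscle creatine kinase, at 2.04-fold. Ckm lay between 0.275 and 0.561 times Acta1 in all 9, with a median of 0.364. These ratios share library and depth, compare counts that are not scaled by gene length, and are given as a description with no test.

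Per kilobase of exon, the scale on which levels of different genes can be compared, Acta1 was the most abundant of the 39 by its median over the 14 primaries, at 18.8 CPM per kb. Atp2a1, the calcium pump of the fast-fibre reticulum, followed at 7.25 and Myh1 at 5.90 CPM per kb. The ranges over the tumours overlapped for all of these neighbours, since Acta1 alone ran from 0.116 to 733 CPM per kb. At the other end, Tnnc1 and Myl3 had medians of 0, and Myh8, the perinatal myosin, 0.00360 CPM per kb.

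The fast myosin genes of the thick filament were present in different proportions in different tumours. Myh4 encodes the myosin of the fastest fibres (type IIb), Myh1 that of type IIx and Myh2 that of type IIa fibres. Of the counts of these 3 genes, Myh4 took 79.0% (95% Wilson interval 78.7 to 79.3) in HP primary 4, 64.3% (63.6 to 65.1) in HP primary 6, 86.0% (85.5 to 86.5) in HPN primary 4 and 72.1% (70.4 to 73.8) in HPN primary 5. HPN primary 1 was nearly even, with 50.8% (50.4 to 51.3) from Myh4 and 43.4% from Myh1. In the other 4 of the 9 tumours Myh1 led, with Myh4 at 6.80% (6.24 to 7.41) in HP primary 3, 2.55% (1.95 to 3.34) in HP primary 7, 16.5% (15.5 to 17.7) in HPN primary 3 and 0.734% (0.445 to 1.21) in HPN primary 6. Both orders occurred in both genotypes. Myh2 had its highest shares in HP primary 3 (21.3%) and HP primary 7 (13.5%). The intervals cover counting error only, and since these genes are close copies of each other, reads that fit several of them may have been split or lost by the authors' counting, which makes the shares uncertain.

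**Figure D2:**
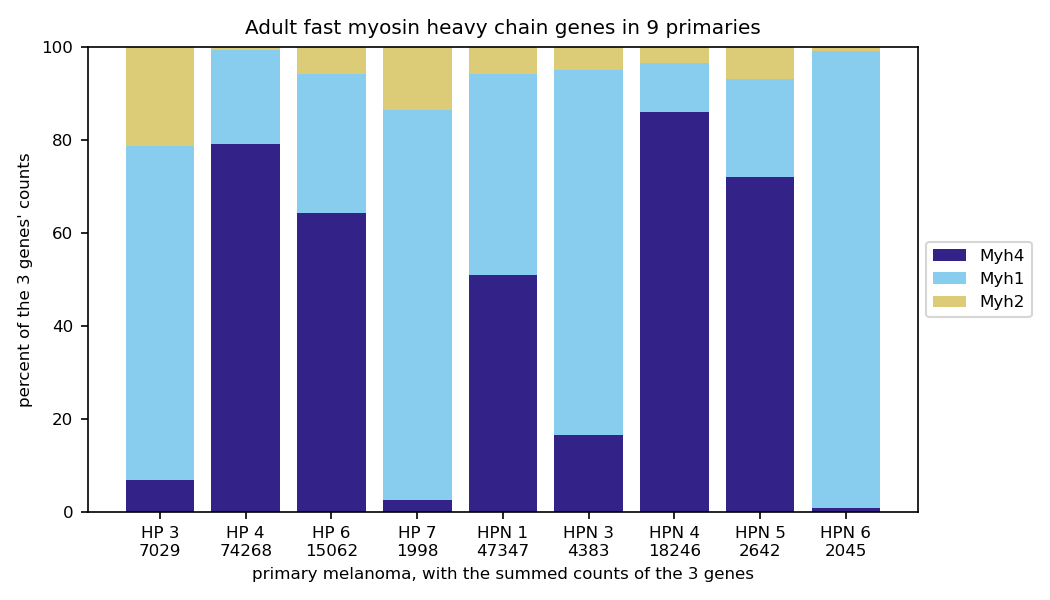
Percent of the counts of Myh4, Myh1 and Myh2 together that each gene took in the 9 primaries with at least 200 Acta1 counts (stacked bars from 0 to 100, with the summed counts under each bar). Myh4 takes the largest share in 5 tumours and Myh1 in 4, with Myh4 ranging from 0.734 to 86.0%.

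Slow-fibre genes were low in every group, with the 5 of them summing to between 0.217 and 7.85 CPM over the 23 libraries. Myl2, the slow and ventricular regulatory light chain, was at 0.793, 0.443 and 0.157 CPM in HP primaries 3, 6 and 7 and at most 0.173 CPM in any other library. Myl3, its essential light chain partner, was at 0.366, 0.510 and 0.118 CPM in the same 3 tumours. Myh7, the slow myosin heavy chain and not one of the 39, was at 2.76, 2.71 and 1.08 CPM in them and at most 0.0874 CPM in the other primaries. These 3 HP tumours are the ones in which all 3 slow thick filament genes were above their levels in the other HP primaries. Myl2 passed the count filter in neither fit and has no test. HP primary 3 also held 6.91 CPM of the embryonic myosin Myh3, against at most 0.291 CPM in any other library.

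Among the thin filament genes, troponin showed which pairs of fast and slow copies followed the muscle RNA. Per kilobase of exon, fast Tnnt3 exceeded slow Tnnt1 by 693 times in HPN primary 1 and by 281 times in HP primary 4. The ratio was 0.0416 in HPN primary 7 and 0.0960 in HP primary 9, tumours with low muscle sums, where each rests on 2 counts of Tnnt3. Tnnt1 was highest in HPN primary 5 (6.32 CPM), and slow Tnni1 was highest in HP primary 9 (4.2 CPM), whose summed muscle RNA was among the lowest. Tnni1 and Tnnt1 thus had their highest levels in tumours other than those with the most Acta1. For Tnni1, however, HPN primary 1, the tumour with the most Acta1, was at 2.46 CPM, above every other primary but HP primary 9. HP primary 5, with a low muscle sum, was at 2.28 CPM. Tnnc1, the slow and cardiac troponin C, had 4 counts in all, 1 each in 4 libraries. It had 0 counts in lung metastasis 4, where the cardiac troponin genes Tnnt2 and Tnni3 were at 51.3 and 39.7 CPM. Whether reads of Tnnc1 could be counted was not tested, so its values near 0 are uncertain as levels.

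Muscle gene levels did not differ detectably between the genotypes. Acta1 was at 2.03, 31.9, 339, 2.28, 229, 18.1 and 0.315 CPM in HP primaries 1, 3, 4, 5, 6, 7 and 9. In HPN primaries 1 to 7 it was at 1126, 2.24, 73.9, 236, 42.9, 25.8 and 0.178 CPM. Each genotype held tumours with over 200 CPM and tumours near 0, so the groups overlapped over almost their whole range. The means were 88.9 ± 137 and 215 ± 410 CPM (SD, n = 7 each), a log2 difference (HPN minus HP) of 1.31 (SE 1.58). The edgeR quasi-likelihood test with Benjamini-Hochberg adjustment gave it an adjusted p of 0.951.

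None of the 33 genes that passed the count filter was called, at a threshold of 0.05 on the adjusted p, where 0% of all 16578 genes tested were called. At an unadjusted p under 0.05 edgeR also counted 0 of the 33, and DESeq2 and limma voom called 0. The log2 difference was positive for 32 of the 33, with a median of 0.87 against -0.05 over all genes tested. That sign rested on HPN primary 1, since the median was -0.77 without it. The single negative value was that of Tnni1 (-0.56).

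The genes chosen to stand for each role gave the same picture in the genotype comparison. The log2 difference of Myh1 was 1.44 (SE 1.55) from a mean of 52.6 ± 64.4 CPM in the HP group to one of 140 ± 254 CPM in the HPN group (SD, n = 7 each). For Myh4 it was 0.65 (SE 1.88), for Tnnt3, the fast troponin T, 1.08 (SE 1.57), and for Atp2a1 0.83 (SE 1.52). These values were smaller than their standard errors, with edgeR adjusted p of 0.951 to 0.966. Ckm stood at 0.89 (SE 1.58, adjusted p = 0.952), and Des, the intermediate filament desmin that links Z discs and is also made in smooth muscle, at 1.06 (SE 1.09, adjusted p = 0.951).

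Of 52 other skeletal muscle genes (among them the Xirp actin-binding proteins, the Klhl turnover adaptors and the subunits of the acetylcholine receptor), 40 were tested between the genotypes, 0 were called, and 37 were positive with a median of 0.69. All 7 hair follicle markers were positive as well (median 0.82), 4 of 8 adipocyte markers were, and all 11 keratinocyte markers were negative (median -1.08). Of these 3 lists 0 genes were called, and their part in the muscle values was not tested.

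**Figure D3:**
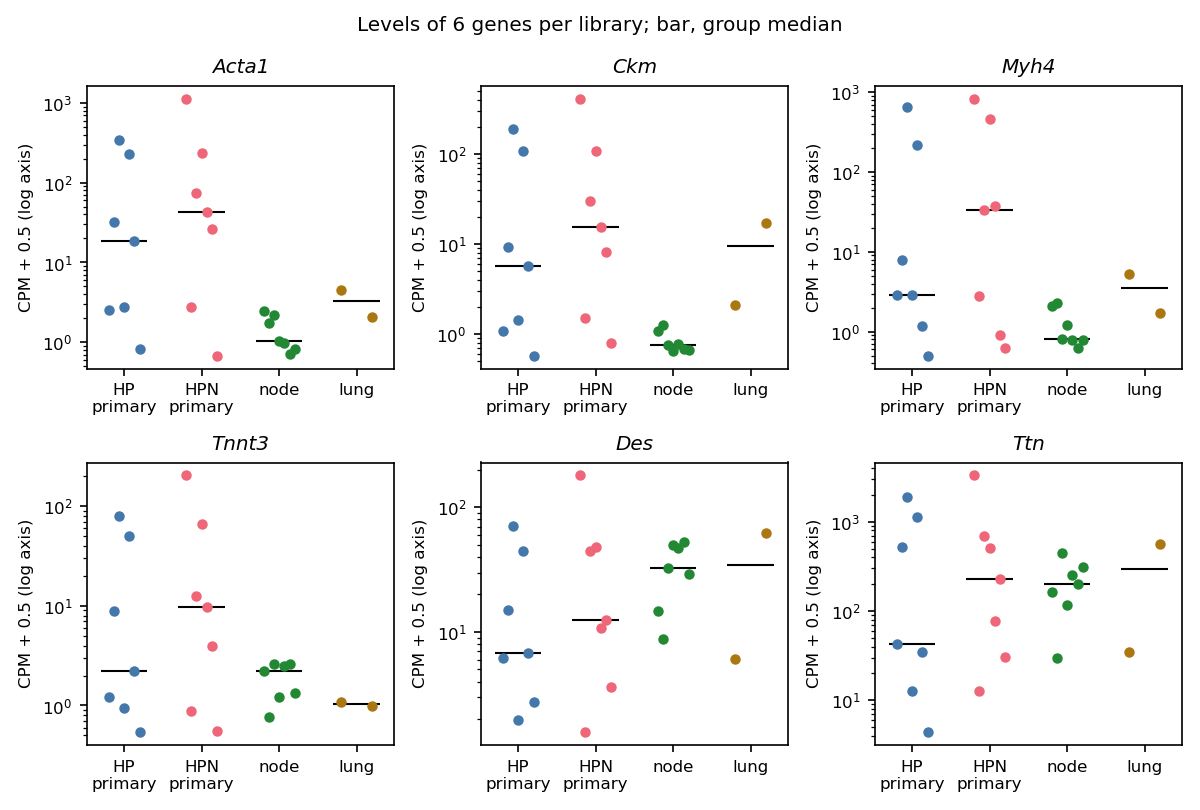
The levels of 6 of the muscle genes, 1 panel each, with every library as a point (CPM + 0.5, log axis) in 4 groups: HP primaries, HPN primaries, nodes and lung metastases. Acta1 runs from 0.178 to 1126 CPM in the HPN primaries and lies between 0.209 and 1.99 CPM in the nodes.

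Most muscle genes fell in the node metastases. Of 35 genes tested against the HPN primaries, 28 were lower and 0 higher at an adjusted p under 0.05 (edgeR quasi-likelihood), where 9.81% of all 19152 genes tested were called lower and 12.7% higher. Without HPN primary 1, 23 of 34 were lower (median -4.13), with Acta1 at -6.07 and Ckm at -6.32. The share of all genes called in that fit is not given here. In the fit of all samples, all 35 log2 differences were negative, with a median of -5.70 (-5.34 with Myh8 and Myog, which had 0 counts in the nodes, at their bounds) against -0.08 over all genes tested. Every node was below the median of the HPN primaries for 29 of the 39 genes, but for 0 of the 39 were the 2 groups separated without overlap. The same counts over all genes were not made, so these values describe the listed genes only. HPN primaries 2 and 7 had smaller sums than every node library.

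Title numbers were read as animals, which pairs 5 node samples with an HPN primary. With the title number as a block, 4 of the genes were lower at an adjusted p under 0.05 (Myh1, Actn3, Myot and Ckm), and 19 were called in the same samples without the block. The pairs differed in direction, by counts that were made for the 39 genes only and not over all genes. In numbers 3 and 4, 38 and 39 of the 39 genes were lower in the node than in the primary. In number 5 it was 30, in number 6 it was 32, and in number 7 it was 10 for node 7a and 6 for node 7b, against 24 and 27 higher. HPN primary 7 had a muscle sum of 52.1 CPM, below its own nodes at 359 and 304 CPM. Without Ttn, Des and Neb the values were 12.8, 44.3 and 41.1 CPM. With a term for the batch of low-quality reads 15 genes were lower, and in the libraries without such reads 16 were. Shares of all genes called in these other fits, the block included, are not given here.

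Acta1 was at 1.99, 1.26, 1.68, 0.543, 0.476, 0.209 and 0.321 CPM in node libraries 3, 4, 5, 6, 7a, 7b and 8. These levels were below those of 6 HPN primaries, with only HPN primary 7 (0.178 CPM) lower. The log2 difference was -7.83 (SE 1.68, edgeR adjusted p = 0.00516), and with the block it was -5.08 (adjusted p = 0.0532). Neb, the nebulin ruler of the thin filament, fell by 3.37 on the log2 scale, from 131 ± 208 CPM (SD, n = 7) to 13.3 ± 9.08 CPM (SD, n = 6), with an adjusted p of 0.0351.

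Thick filament genes were lower in 7 of 8 tested. Myh1 was between 0.0261 and 1.19 CPM over the node libraries (median 0.302), against 0.255 to 703 CPM (median 53.0) in HPN primaries. It fell by 8.45 on the log2 scale (SE 1.70, edgeR adjusted p = 0.00356) and by 5.93 with the block (adjusted p = 0.0200). Myh4 was between 0.131 and 1.82 CPM in the nodes and between 0.127 and 824 CPM in HPN primaries. It fell by 7.98 (SE 1.92, adjusted p = 0.00957), which with the block was -4.48 (adjusted p = 0.183). Myh8 had 0 counts in the nodes, so that its mean in HPN primaries was at least 24.3-fold higher, with 3 counts over the whole node group as the floor. Mybpc2, the fast myosin-binding protein C, was the 1 thick filament gene tested that was not called (-3.33, adjusted p = 0.0790).

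Thin filament genes were lower in 6 of 7 tested. Tnnt3 was at 1.70, 0.264, 2.12, 0.724, 1.99, 2.14 and 0.845 CPM in node libraries 3, 4, 5, 6, 7a, 7b and 8, above the levels in HPN primaries 2 and 7 (0.379 and 0.0510 CPM) in 6 of 7. It fell by 5.10 on the log2 scale (SE 1.44, adjusted p = 0.0216), which with the block was -2.57 (adjusted p = 0.297). Slow Tnnt1 was not called (-1.99, adjusted p = 0.0680). Calcium handling genes were lower in 5 of 6. The exception was Cacna1s (-1.66, edgeR adjusted p = 0.314), at 0.410 to 11.3 CPM in the node libraries and 0.0690 to 60.3 CPM in HPN primaries. Atp2a1 went from 218.5 ± 415 CPM (SD, n = 7) in HPN primaries to 1.87 ± 1.42 CPM (SD, n = 6) in nodes, a fall of 6.95 (SE 1.54, adjusted p = 0.00608). With the block its difference was -4.52 (adjusted p = 0.0613). Trdn, the triadin that ties calsequestrin to the release channel, had 3 counts over all nodes. Its pooled CPM was 415 times as high in HPN primaries (95% counting interval 142 to 2015). HPN primary 1 gave 959 of the 1337 Trdn counts of that group, and the interval leaves out the spread among tumours.

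Z disc and scaffold genes were lower in 6 of 8 tested. The exceptions were Des and Ttn, both of which kept sizeable levels in the nodes. Des was at 14.1, 8.20, 32.4, 49.8, 46.3, 51.8 and 28.8 CPM in node libraries 3, 4, 5, 6, 7a, 7b and 8, inside the range of HPN primaries (1.07 to 180 CPM). Its log2 difference was -0.56 (SE 0.95, adjusted p = 0.690). Without HPN primary 1 it was 0.53. Ttn, the giant spring protein titin, was between 29.1 and 451 CPM in the nodes, and HPN primaries 2, 5 and 7 had 12.2, 76.5 and 29.8 CPM. The log2 difference of Ttn was -1.74 (adjusted p = 0.264). Smooth muscle markers, which belong to tissue that also makes desmin, summed to 106 to 275 CPM in nodes and 85.7 to 276 CPM in HPN primaries. The part of smooth muscle in the Des levels was not tested, nor was the source of the Ttn counts in the nodes.

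Energy supply genes were lower in 3 of 5. Ckm was at 0.578, 0.762, 0.259, 0.151, 0.280, 0.183 and 0.175 CPM in node libraries 3, 4, 5, 6, 7a, 7b and 8. HPN primary 7 lay at 0.306 CPM, within this range, and the other HPN primaries between 1 and 410 CPM. Ckm fell by 7.92 on the log2 scale (SE 1.66, adjusted p = 0.00438) and by 5.27 with the block (adjusted p = 0.0325). Eno3, the muscle enolase, was not called (-1.88, adjusted p = 0.124), nor was Pygm, the muscle glycogen phosphorylase (-3.42, adjusted p = 0.0553). Of the regulators, Myog, the myogenin that drives late differentiation, and Myod1 had 0 counts in the 7 node libraries. Their means in HPN primaries were at least 11.1-fold and at least 10.8-fold higher, from levels that did not pass 0.650 CPM in any primary.

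Fast-fibre genes were lower in 11 of 12 tested, slow-fibre genes in 1 of 2, and genes shared with heart in 7 of 9. Of the 52 other skeletal muscle genes, 50 were tested and 26 were lower and 0 higher (median -2.86), with 7 of the 50 differences positive. The falls with the smallest p included Klhl40, which stabilises thin filament proteins, at -4.47 (adjusted p = 0.00238), and Xirp2 and Xirp1, which bind actin at muscle attachment sites, at -8.73 (adjusted p = 0.00296) and -5.27 (adjusted p = 0.00604). Chrna1, a subunit of the muscle acetylcholine receptor, was at 0.0345 to 0.685 CPM in HPN primaries and had 3 counts in the nodes. The subunits Chrnb1 and Chrnd had positive differences and were not called (1.22 and 2.55, edgeR adjusted p = 0.068 and 0.134). Of 8 genes of muscle progenitors and fusion, 3 were tested and 1 was lower, Cdh15 (-3.49, adjusted p = 0.0275), a cadherin of muscle precursors. Myf5, Myf6 and Chodl of that list had 0 counts in the nodes. Mymk and Pax7, which were not tested, went the other way at very low levels. Their means were 0.160 and 0.0621 CPM in nodes and 0.00832 and 0.0205 CPM in HPN primaries. In the same comparison all 11 keratinocyte and all 7 hair follicle markers were lower, and all 6 lymphocyte markers higher. The part of this change in tissue makeup in the muscle genes was not tested.

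**Figure D4:**
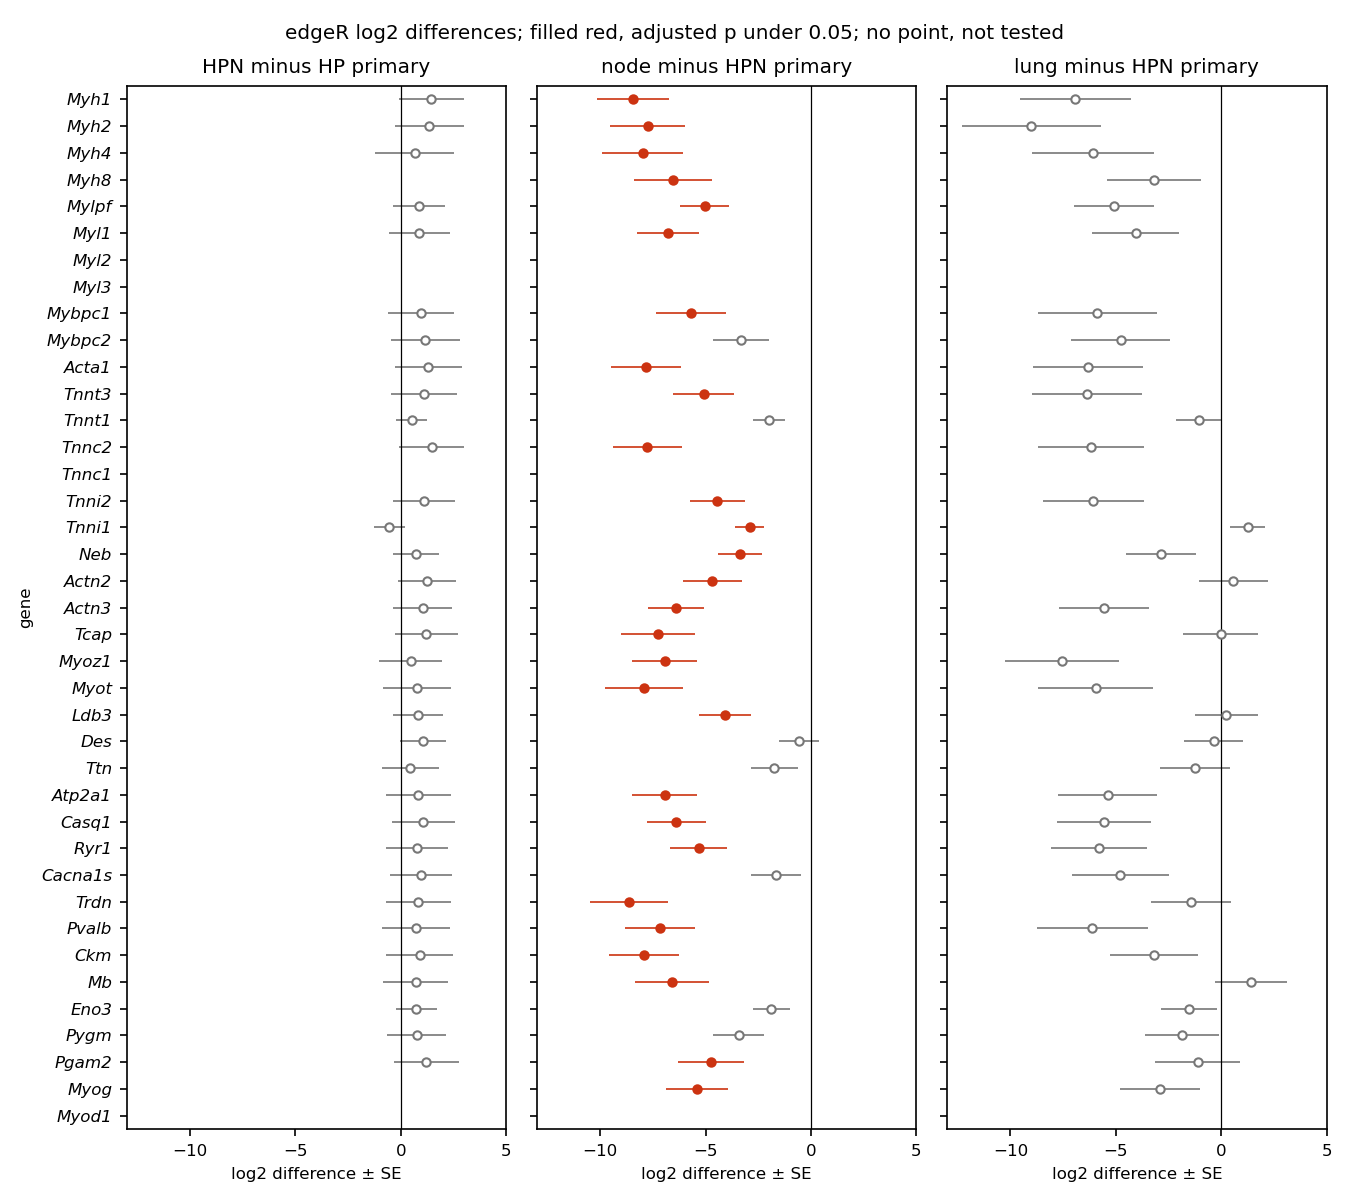
Log2 differences with standard errors from edgeR for each muscle gene tested, in separate panels for the comparisons named above them, with filled red points at an adjusted p under 0.05. All 35 points lie left of 0 for nodes against HPN primaries, where Myh8 and Myog had 0 node counts and their points depend on the prior count.

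Lung metastases were compared with the HPN primaries over 2 libraries only. None of the 35 genes tested was called by the edgeR quasi-likelihood test, where 0.266% of all genes tested were called (0.251% higher and 0.0157% lower), although 14 had an unadjusted p under 0.05. DESeq2 called 13 lower and limma voom 0, for which no shares over all genes are given here. The log2 difference was negative for 31 of 35, with a median of -4.77 against -0.06 over all genes tested, and positive for Tnni1, Actn2, Ldb3 and Mb. Fast-fibre genes had a median of -6.08 and genes shared with heart -0.36, values that were not tested against each other.

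Acta1 was at 4.06 and 1.57 CPM in lung metastases 3 and 4, both below 5 of the 7 HPN primaries (log2 difference -6.32, SE 2.61, edgeR adjusted p = 0.643). The values were -6.93 for Myh1 (SE 2.64, adjusted p = 0.596), -6.08 for Myh4 (SE 2.91, adjusted p = 0.690) and -6.37 for Tnnt3 (SE 2.59, adjusted p = 0.635). Those of Atp2a1 and Ckm were -5.39 (SE 2.36, adjusted p = 0.679) and -3.19 (SE 2.08, adjusted p = 0.814). Des stood at -0.36 (SE 1.39, adjusted p = 0.996). Without lung metastasis 3, 1 gene, Myl3, was called higher.

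The 2 lung libraries differed from each other in which muscle genes they held. In lung metastasis 4, 10 of the 39 genes were over 10 times their level in lung metastasis 3. Of these 10, 9 belong to the 12 listed here as shared with heart (Myl3, Actn2, Tcap, Ldb3, Des, Ttn, Trdn, Ckm and Mb). The remaining gene was Pgam2, a muscle glycolytic mutase that was not put on that list, which does not mean that heart lacks it. The same count over all genes was not made, so these values describe the listed genes in 2 single libraries. Of the 12 heart-shared genes Acta1 was lower in lung metastasis 4, Myl2 had 1 count there and Tnnc1 had 0 in both. None of the 12 fast-fibre genes was over 10 times as high. Myl1, the fast essential light chain, was at 0.704 and 2.49 CPM in lung metastases 3 and 4 (3.54 times), Mybpc2 was 2.58 times and Actn3, the fast alpha-actinin, 1.72 times as high. Myh4 was at 4.80 CPM in lung metastasis 3 and 1.20 CPM in lung metastasis 4, and Tnnt3 at 0.576 and 0.478 CPM. Mb, the oxygen store myoglobin, was at 0.224 and 53.9 CPM, the latter close to the 58.1 CPM of HPN primary 1, in which Myh4 stood at 824 CPM.

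The genes listed as cardiac markers, none of them a member of the list, were also compared between the 2 libraries. The 12 markers summed to 1064 CPM in lung metastasis 4 and 35.4 CPM in lung metastasis 3, against 12.1 to 45.3 CPM in nodes and 10.7 to 72.6 CPM in primaries. The atrial and ventricular genes Myh6, Actc1, Myl7 and Nppa were at 387, 149, 43.6 and 76.1 CPM in lung metastasis 4 and had 0 counts in lung metastasis 3. Of the 35.4 CPM in lung metastasis 3, 28.5 CPM came from Nppb, a natriuretic peptide gene that was at 35.7 CPM in lung metastasis 4 and averaged 22.2 CPM in HP and 17.5 CPM in HPN primaries. Lung metastasis 4 was also the library with the alveolar and airway RNA. The part of cardiac RNA in the levels of the shared genes was not tested.

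**Figure D5:**
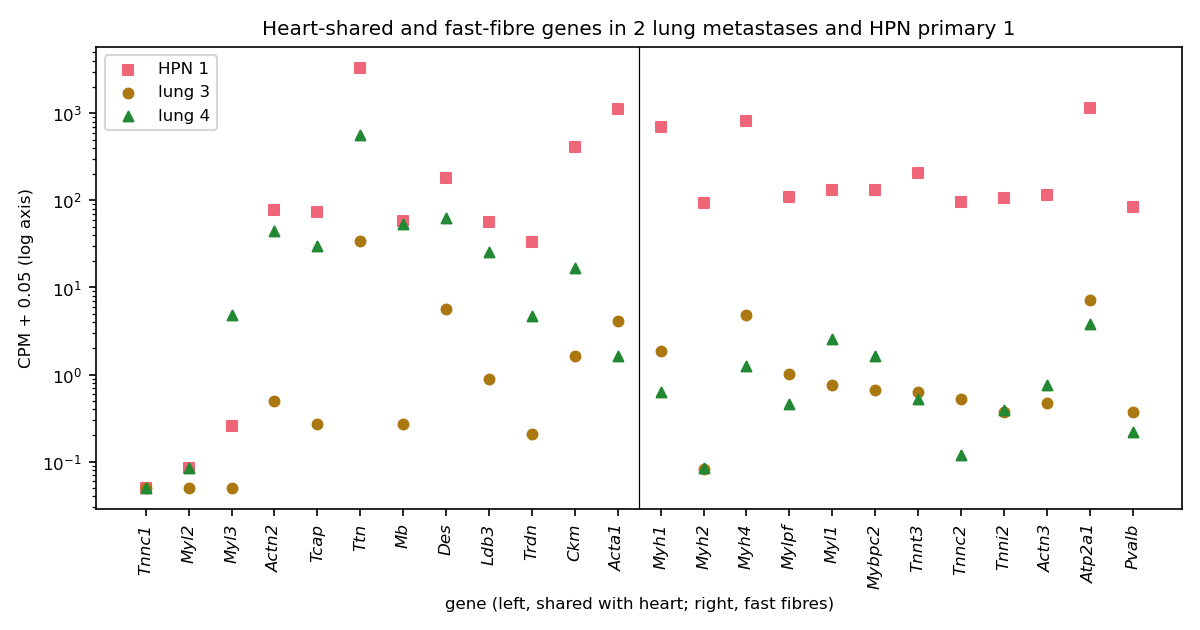
CPM + 0.05 (log axis) of the genes shared with heart (left of the line) and of fast-fibre genes (right) in lung metastasis 3, lung metastasis 4 and HPN primary 1. Lung metastasis 4 approaches HPN primary 1 for genes such as Mb (53.9 against 58.1 CPM) on the left and lies far below it for every fast-fibre gene on the right.

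Directly compared, 4 of 35 muscle genes were higher and 0 lower in lung than in node metastases by edgeR, where 5.04% of all genes tested were called, 1.96% higher and 3.09% lower. The median log2 difference (lung minus node) was 1.51 (1.05 with Myh8 and Myog at their bounds) against 0.01 over all genes tested. With the title number as a block, with a term for the low-quality batch, and in the libraries without low-quality reads, 0 were called. DESeq2 called 7. No shares over all genes are given here for these alternatives.

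Tnni1, the slow troponin I, was at 1.92 and 2.73 CPM in lung metastases 3 and 4 and at 0.0361 to 0.234 CPM over the node libraries. It was the 1 gene of the 4 that was high in both lung libraries, with no overlap between the sites (log2 difference 4.17, SE 0.85, edgeR adjusted p = 0.0257). Without lung metastasis 4 its difference was 3.87 (adjusted p = 0.125), and with the block it was 3.25 (adjusted p = 0.273). The HPN primaries ran from 0.0972 to 2.46 CPM and reached as low as the nodes.

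The other calls rested on lung metastasis 4. Tcap, the titin cap of the Z disc, was at 0.224 and 30.1 CPM in lung metastases 3 and 4 and at most 0.181 CPM in nodes (log2 difference 7.22, SE 1.87, adjusted p = 0.0429). Without lung metastasis 4 it was 1.12 (adjusted p = 0.862). Mb was at most 0.175 CPM in nodes (8.02, SE 1.99, adjusted p = 0.0377), and without lung metastasis 4 its difference was 1.08 (adjusted p = 0.869). Trdn was at 0.160 and 4.64 CPM in the lungs and had 3 counts in the nodes (edgeR adjusted p = 0.0471). Its pooled CPM was 176 times as high in lung (95% counting interval 58.9 to 862). Lung metastasis 4 gave 136 of the 141 lung counts, and the interval leaves out the spread among samples. Without lung metastasis 4 Trdn had an adjusted p of 0.545.

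The genes that stand for the other roles were not called between the sites. Ckm was at 1.60 and 16.7 CPM in the lungs, above all nodes (log2 difference 4.73, SE 1.66, edgeR adjusted p = 0.107). Acta1 (1.51, SE 1.76), Myh1 (1.52, SE 1.85), Myh4 (1.90, SE 1.98), Atp2a1 (1.56, SE 1.62), Des (0.20, SE 1.36) and Tnnt3 (-1.28, SE 1.99) differed by about their standard errors or less, with adjusted p of 0.595 to 0.949. All 9 tested genes shared with heart had positive values and 3 of them were called, while 0 of 12 fast-fibre genes were. Of the 52 other skeletal muscle genes 7 of 50 tested were higher, among them Xirp1 (6.15, adjusted p = 0.0280) and Lmod2 (7.90, adjusted p = 0.0357), a cardiac and skeletal actin nucleator. In lung metastases 3 and 4, Xirp1 was at 0.896 and 9.15 CPM and Lmod2 at 0.192 and 9.90 CPM, so that the higher level was mostly that of lung metastasis 4. In the same comparison 6 of 9 cardiac markers tested were higher.

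Several of the genes overlap another gene on the opposite strand, and the strand setting of the authors' counting was not given. The overlap covers 74.0% of the exonic bases of Tnnc2 (with Ube2c, a cell cycle gene), 27.6% of those of Mb, 21.9% of Atp2a1 (with Rabep2), 20% of Cacna1s, 15.5% of Ckm and 8.11% of Myh1. Low levels of these genes are therefore uncertain. Tnnc2 in the nodes was at most 0.234 CPM and in HPN primary 1 at 94.7 CPM.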

How the data were processed

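Per the labels' protocols, a column kit gave total RNA and a directional kit the libraries. The submitters' processing notes name bcl2fastq 1.8.4 for demultiplexing, STAR 2.5.3a for alignment and the build mm9. The deposited values are raw counts of reads per Ensembl gene, 1 table per library, and summary entries that name no gene were left out. Not given in the sources used here were the version and strand setting of the counter and the annotation release. Symbols, exonic lengths and overlaps came from GENCODE vM21 (GRCm38), which matched 32897 of 37620 identifiers (87.45%), the rest holding 1.70% of counts. Promoter windows and their coordinates come from RefSeq on GRCm38.p6, a later build than that of the counts.

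The members and lists were chosen with earlier results of these data known. All genes were fitted with edgeR 4.0.16 (R 4.3.3), using TMM scaling, filterByExpr and the robust quasi-likelihood test, and Benjamini-Hochberg adjustment over all genes tested and a threshold of 0.05. The 14 primaries formed 1 fit. The HPN primaries, nodes (7a and 7b summed) and lungs, 15 samples, formed the other. CPM were scaled over all 23 libraries, and shares have 95% Wilson intervals (scipy 1.17.1, Python 3.11.15). Fold changes were named for 8 genes that stand for the roles (Acta1, Ckm, Myh1, Myh4, Tnnt3, Myl2, Atp2a1 and Des) and for members called in a lung comparison. Members not called in the nodes, and others with few counts, were named after their values were seen. Of other lists, up to 4 genes with the smallest p were named. Alternatives were DESeq2 1.42.0, its size factors in edgeR, limma 3.58.1 voom with quality weights, other filters, all groups in 1 fit, a batch term, 7a and 7b apart, each library left out, and the title number as a block. The fits were tested on simulated data.

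Titles give HPN primaries and metastases the same numbers, which were read as the same animals. Deviations from group means of same-numbered HPN primaries and nodes correlated at 0.25, 0.01, -0.07, 0.24 and 0.14 for numbers 3 to 7. HPN primaries 3, 6 and 7 correlated best with the node of their own number, and HPN primaries 4 and 5 with nodes 7 and 6. Same-numbered HP and HPN primaries, which differ in genotype and so are different animals, correlated at 0.138 to 0.657, and 0 of 6 HPN primaries correlated best with their own number. Where nothing says that samples of a group came from separate animals, p-values reflect only the spread among them, which may be technical. Depth ran from 18870759 to 89481553 counts, and 1 count corresponds to a few hundredths of a CPM.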

Additional observations from a re-analysis of the deposited data

Results flagged for a closer look

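In groups of 4 to 10 samples, 120 sets of values (on log2(CPM + 0.5)) were checked for a sample that stands apart from the rest of its group, and 10 were found, where chance gives about 1 in 20. Eno3 was at 170 CPM in HPN primary 1, with the other HPN primaries between 4.76 and 23.04 CPM. Myod1 was at 0.650 CPM in the same tumour, against at most 0.136 CPM in the others. Myl3 was at 0.205 CPM there, against at most 0.0455 CPM.

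In the nodes, Mylpf was lowest in node 3 at 0.434 CPM, against 0.694 to 0.816 CPM in the other samples, and Pygm was lowest in node 4 at 1.14 CPM, against 3.18 to 5.11 CPM. Tnnc2 was highest in node 4 at 0.234 CPM (others 0.0302 to 0.0864 CPM), Myh2 in node 6 at 0.271 CPM (others up to 0.0874 CPM), and Myot in node 3 at 0.108 CPM (others up to 0.0291 CPM). A single count stood apart from samples at 0 for Myl3 in node 3 (0.0361 CPM) and for Tnnc1 in HPN primary 4 (0.0291 CPM).

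The difference from the HPN primaries was not the same at both metastatic sites for 4 genes, by the edgeR test of lung against node. The log2 differences were 4.17 for Tnni1, 7.22 for Tcap, 7.21 for Trdn (on 3 node counts) and 8.02 for Mb. Those of Tcap, Trdn and Mb rested on lung metastasis 4. None of the 4 was called with the title number as a block, with the batch term or in the libraries without low-quality reads.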

How the results depend on the processing

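The number of muscle genes called between the genotypes was 0 under all 24 alternatives, the replicate block included. In the nodes the count of 28 stayed within 1.5 times under 20 of 24 alternatives (20 to 30 with 1 library left out, 32 with DESeq2) and was 17 with limma voom, 15 with the batch term, 16 in libraries without low-quality reads and 4 with the replicate block. In lung the count of 0 was 13 with DESeq2 and 0 to 1 with 1 library left out. For lung against node the count of 4 was 7 with DESeq2, 1 (Tnni1) with limma voom, 0 with the batch term, 0 without the low-quality libraries, 0 with the replicate block and 0 to 4 with 1 sample left out (0 without lung 4, node 7 or node 8, and 1 without node 3, 5 or 6). Where 1 lung is left, it is assumed to vary like the other groups. The mean summed level of the 7 node libraries, 299.2 CPM, was 78.8 CPM without Ttn and Atp2a1. Shares of all genes called under the alternatives are not given here, so these counts cannot be set against the calls over all genes. The cause of the shifts was not tested.

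Signs of uncalled values also turned. Between the genotypes, limma voom gave -0.63 for Myh4, -0.079 for Tnnt3 and -0.18 for Des, the batch term -0.19 for Ckm, -0.73 for Myh4 and -0.33 for Atp2a1, and the replicate block -0.064 for Atp2a1. With 1 library left out the ranges, whose low ends are without HPN primary 1, were -0.53 to 2.22 for Acta1, -0.77 to 2.01 for Ckm, -0.23 to 2.10 for Myh1, -0.53 to 2.36 for Myh4, -0.46 to 2.05 for Tnnt3, -0.98 to 2.06 for Atp2a1 and -0.11 to 1.8 for Des. Des in nodes was 1.19 with limma voom, 0.78 with the block, 0.30 in the paired samples without it and -0.78 to 0.53 with 1 library left out. In lung it was 0.32 with limma voom, 0.56 in the paired samples without the block and -2.94 to 0.82 with 1 left out. For lung against node it was -0.87, -0.89 with the block and -2.43 to 1.07. The block gave -0.061 for Acta1, -0.13 for Myh1 and -0.10 for Myh4 there. At these depths levels under about 0.1 CPM rest on single counts.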
